A study of Homo sapiens with 6 samples.

Results

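Cross-links on transcripts of the mitochondrial genome were taken from eIF4B iCLIP of DoHH-2 cells, a line from diffuse large B-cell lymphoma (DLBCL), and of GM01953 cells, which are non-cancerous B cells used as the control. iCLIP joins a protein to RNA with UV light and reads the joined nucleotide from where the cDNA stops. Every position on the mitochondrial chromosome of either strand was a member, each position once, which gave 3522 of 1179243 positions in DoHH-2 and 368 of 78474 in GM01953. Neither cell line was treated, and both were cross-linked with 150 mJ/cm2 of UVC, in 4 DoHH-2 and 2 GM01953 replicates. The tables pool the replicates of a cell line, so no value has an SD and no test between the cell lines was possible. Intervals are 95% and cover counting error only. The B-cell label was checked on 4 defining genes (MS4A1, CD79A, CD79B and PAX5), and all 4 held counts in both cell lines, whereas 3 T-cell and 2 monocyte genes were listed in neither.

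The human mitochondrial genome is a small circle that is transcribed on both strands into long precursors. These are cut mostly at the tRNAs, which lie between the other genes, into 2 rRNAs, 13 mRNAs and 22 tRNAs. The mRNAs encode subunits of the respiratory chain and of ATP synthase and are translated inside the organelle by its own ribosomes, which do not use the cytosolic initiation factors. eIF4B is a cytosolic factor that stimulates the helicase eIF4A. The question asked of these positions was therefore what its iCLIP lists on RNAs that eIF4B should not meet in the cytosol. The cells were lysed with detergent after cross-linking and the transcript levels were not analysed here, so a larger number of cross-links and a more abundant RNA cannot be told apart.

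The positions with the highest counts are shown with 14 nt to each side, because most of what follows turns on them. Sequences are those of the transcribed strand of GRCh38, written 5′ to 3′ with T for U, and the capital marks the cross-linked nucleotide. The first 6 are the 5 highest positions of either cell line, and the last 2 are the highest position of MT-TM and the last nucleotide of MT-TL1.
MT-RNR2, MT:3168-3196 (+): cccccgtaaatgatAtcatctcaacttag
MT-TY, MT:5845-5873 (-): agcattggactgtaAatctaaagacaggg
MT-RNR2, MT:2509-2537 (+): atcacctctagcatCaccagtattagagg
MT-TF, MT:600-628 (+): agcaatacactgaaAatgtttagacgggc
MT-RNR2, MT:2603-2631 (+): cacttgttccttaaAtagggacctgtatg
MT-RNR2, MT:3186-3214 (+): tctcaacttagtatTatacccacacccac
MT-TM, MT:4419-4447 (+): aagctatcgggcccAtaccccgaaaatgt
MT-TL1, MT:3290-3318 (+): ttcctcttcttaacAacatacccatggcc
All of these nucleotides lie within an annotated rRNA or tRNA, and none lies within an mRNA.

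The tRNAs with the highest counts are shown by their anticodon arm, since its loop held most of the tRNA counts when all tRNAs were summed. A script found the arm as a stem of 5 positions, at least 4 of them paired, around a loop of 7 nt, and the capitals mark the loop, whose middle 3 nt are the anticodon.
MT-TY: ttggaCTGTAAAtctaa
MT-TM: tcgggCCCATACcccga
MT-TF: atacaCTGAAAAtgttt
MT-TL1: taaaaCTTAAAActtta
MT-TP: ttagcTTTGGGTgctaa
MT-TG: gttaaCTTCCAAttaac
MT-TI: ttactTTGATAGagtaa
In MT-TY and MT-TF the cross-linked adenine of the windows above is the nucleotide directly 3′ of the anticodon, and in MT-TM it is the middle nucleotide of the anticodon.

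Mitochondrial positions held a small part of all counts of the eIF4B iCLIP. DoHH-2 had 11314 of 2033156 cDNA counts there, or 0.557% (0.546 to 0.567%), and GM01953 had 1090 of 167197, or 0.652% (0.615 to 0.692%). A mitochondrial position held more counts than a nuclear one. The mean count of a mitochondrial position was 3.21 in DoHH-2, against 1.72 for nuclear positions, and 2.96 in GM01953, against 2.13. Of the mitochondrial positions in DoHH-2, 60.2% had a single count, compared to 84.0% of the nuclear ones, and 52.2% compared to 60.8% in GM01953. The 10 highest positions together held 18.3% of the mitochondrial counts in DoHH-2 and 27.2% in GM01953.

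eIF4B binding sites were called at an FDR below 0.05, which iCount assigns by comparing a position with the other counts of its gene. Called positions numbered 771 in DoHH-2 or 21.9% of mitochondrial positions, next to a background of 21.5% over all positions of that cell line. In GM01953 they numbered 127 or 34.5%, next to a background of 36.6%. Over the positions to which the authors assigned a gene, 25.8% (24.3 to 27.4%) were called in DoHH-2, where the background was 23.2%. In GM01953 35.98% (31.2 to 41.1%) were called, where the background was 41.0%. The share of called positions was therefore near the background in both cell lines and is no result about mitochondrial RNA. The called positions held 59.1% of the mitochondrial counts in DoHH-2 and 65.2% in GM01953.

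Both rRNAs together took close to 50% of the mitochondrial counts, and the mRNAs and tRNAs took most of the rest. The rRNAs held 5474 counts in DoHH-2, which is 48.4% (47.5 to 49.3%), and 533 in GM01953, which is 48.9% (45.9 to 51.9%). The mRNAs held 3588 counts or 31.7% (30.9 to 32.6%) in DoHH-2 and 303 or 27.8% (25.2 to 30.5%) in GM01953. The tRNAs held 1516 counts or 13.4% (12.8 to 14.04%) in DoHH-2 and 232 or 21.3% (19.0 to 23.8%) in GM01953. The rRNA intervals of the cell lines overlapped, whereas those of the mRNA and tRNA shares did not. The tRNA intervals also lay apart without the highest position of each gene, with 7.03% (6.53 to 7.56%) in DoHH-2 and 10.1% (8.20 to 12.3%) in GM01953. The rRNA intervals then lay apart as well, with 49.9% (48.9 to 50.9%) and 57.6% (54.1 to 60.9%). The mRNA intervals overlapped where only unique sequence was used, with 32.4% (31.52 to 33.4%) and 30.9% (28.1 to 34.01%), so only the tRNA difference held under each of these settings. It was not shared by the tRNAs as a set. MT-TF alone took 1.81% (1.58 to 2.08%) of the mitochondrial counts in DoHH-2 and 7.43% (6.02 to 9.14%) in GM01953. The tRNAs other than MT-TF, MT-TM and MT-TY held 594 of 11314 counts in DoHH-2 and 61 of 1090 in GM01953, which are similar shares.

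**Figure D1:**
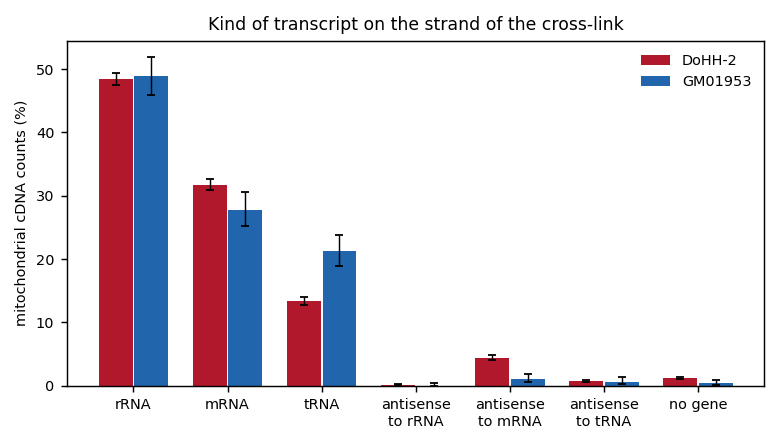
Share of mitochondrial cDNA counts (%) by the kind of gene on the strand of the cross-link, for DoHH-2 (red) and GM01953 (blue). Bars are the pooled shares and error bars are Wilson 95% intervals. The rRNA bars stand at 48.4% and 48.9%, and the tRNA bar is 13.4% in DoHH-2 and 21.3% in GM01953.

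Per length, the order was rRNA, then tRNA, then mRNA in both cell lines. In DoHH-2 there were 2178 counts per kb (2121 to 2237) on rRNAs, 1006 (956.0 to 1058) on tRNAs and 316 (306 to 327) on mRNAs. In GM01953 there were 212 counts per kb (195 to 231) on rRNAs, 154 (135 to 175) on tRNAs and 26.7 (23.8 to 29.9) on mRNAs. No neighbours in this order had overlapping counting intervals. The order is that of all genes of a kind summed. MT-RNR1 alone held 761 counts per kb in DoHH-2 and 84.9 in GM01953, below the summed tRNAs in both. The median tRNA held 387 and 32.1, also below these sums. Of the positions on each kind of gene, 41.5% were called on tRNAs, 26.1% on rRNAs and 23.9% on mRNAs in DoHH-2, where the background for positions with a gene was 23.2%, so that the mRNA share was at the background. In GM01953 the largest share was on rRNAs, with 39.5%, then tRNAs with 35.9% and mRNAs with 32.4%, all below the 41.0% of that cell line as a whole.

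The + strand of the reference carries the sense sequence of 28 of the 37 genes, among them both rRNAs and 12 of the mRNAs, and it held most of the counts. The other 9 genes, MT-ND6 and 8 tRNAs, are read from the - strand. The - strand held 1115 counts or 9.86% (9.32 to 10.4%) in DoHH-2 and 74 or 6.79% (5.44 to 8.44%) in GM01953. Most of these lay on tRNAs, with 576 of the 1115 in DoHH-2 and 56 of the 74 in GM01953. Of the 8 tRNAs on this strand, MT-TY had 453 of the 576 counts and MT-TP 114 in DoHH-2, and the other 6 had 9 in all. Per length, the - strand tRNAs had 1045 counts per kb (962 to 1134) in DoHH-2, and 253 (210 to 302) without MT-TY, compared to 983 (921 to 1048) for the + strand tRNAs. In GM01953 they had 102 (76.8 to 132), and 18.5 (8.47 to 35.2) without MT-TY, compared to 184 (158 to 213). The + strand values kept their highest tRNAs, MT-TM and MT-TF. The values without MT-TY are therefore no like comparison between the strands.

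**Figure D2:**
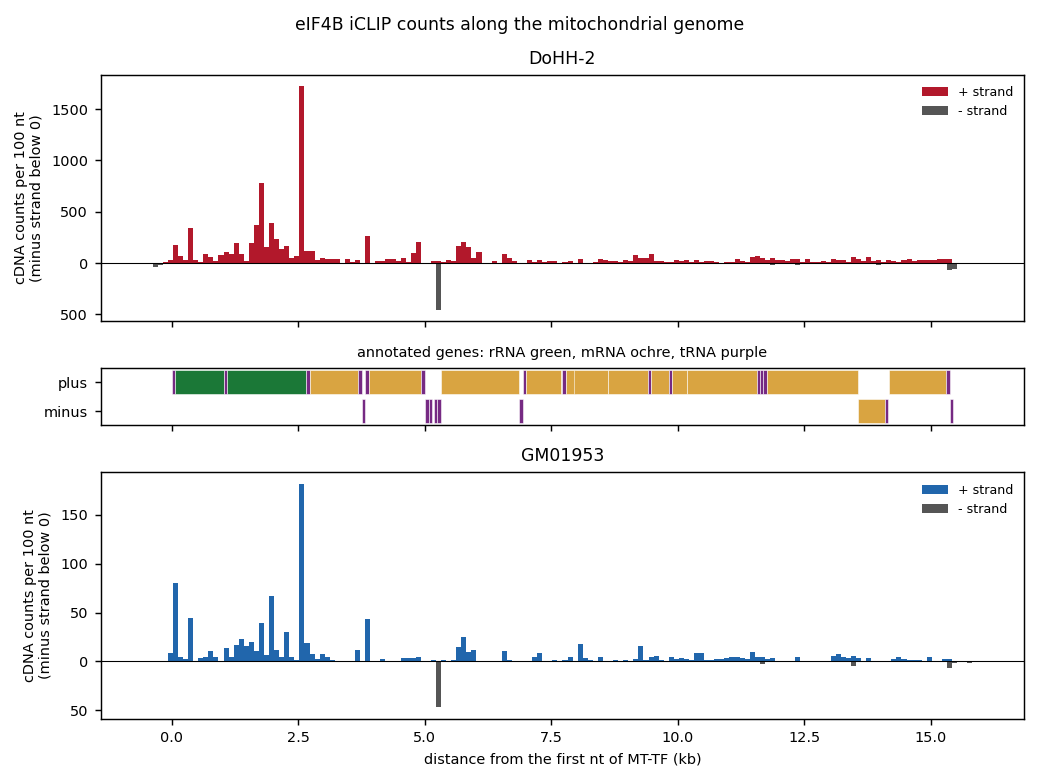
cDNA counts per 100 nt along the mitochondrial genome (y axis) against the distance from the first nucleotide of MT-TF (kb, x axis), with the + strand above 0 and the - strand below, for DoHH-2 (top) and GM01953 (bottom). The middle panel gives the annotated genes by strand. The tallest bar of both cell lines, 1729 counts in DoHH-2, lies at the 3′ end of MT-RNR2, and the single tall bar below 0 is MT-TY.

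MT-ND6, which encodes a subunit of complex I, was the mRNA with the fewest counts per length in both cell lines. It held 49 counts (exact Poisson interval 36.3 to 64.8) in DoHH-2 and 2 (0.242 to 7.23) in GM01953. The opposite strand of the same stretch, where no gene is annotated, held 158 counts in DoHH-2 and 4 in GM01953. In DoHH-2 this was 301 counts per kb (255.9 to 351.7), compared to 93.3 (69.1 to 123) on MT-ND6 itself and 327 (317 to 338) over all + strand mRNAs. The mRNA of MT-ND5, which lies directly upstream on the + strand, is known to run on into this stretch as a 3′ untranslated part. In DoHH-2 the 158 counts were the largest number opposite any gene.

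Cross-links opposite annotated genes were few elsewhere. The strand opposite the rRNAs held 19 counts (0.168%) in DoHH-2 and 0 of 1090 in GM01953, which allows a share of up to 0.275%. On the - strand opposite the mRNAs there were 343 counts in DoHH-2, or 31.7 per kb (28.4 to 35.3), and 7 in GM01953. Of these, 121 in DoHH-2 and 5 in GM01953 lay opposite MT-ND5. No position opposite a gene or outside all genes was called in either cell line, since such positions carry no gene name and an FDR of 1 in the tables. The control region, which holds the promoters and the origin of heavy-strand replication, had its counts mainly on the - strand. Between the start of the reference sequence and MT-TF, DoHH-2 had 82 counts on the - strand, at most 10 at one position, and 14 on the + strand. GM01953 had 1 and 0 there.

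MT-RNR2, the 16S rRNA of the large mitochondrial ribosomal subunit, was the most cross-linked gene of the genome in number in both cell lines. It held 4748 counts or 42.0% (41.1 to 42.9%) of the mitochondrial counts in DoHH-2 and 452 or 41.5% (38.6 to 44.4%) in GM01953. MT-RNR1, the 12S rRNA of the small subunit, held 726 or 6.42% (5.98 to 6.88%) in DoHH-2 and 81 or 7.43% (6.02 to 9.14%) in GM01953. Per length, MT-RNR2 held 3046 counts per kb and MT-RNR1 761 in DoHH-2. In GM01953 these values were 290 and 84.9. For both rRNAs the share of mitochondrial counts had overlapping intervals between the cell lines.

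Within MT-RNR2 the counts were concentrated close to the 3′ end. The 50-nt stretch with the most counts in DoHH-2, chosen from its values, was MT:3151-3200 and ends 29 nt before the end of the gene. It is 3.21% of the length of the rRNA and held 1542 of 4748 counts or 32.5% (31.2 to 33.8%) in DoHH-2. In GM01953, whose values did not enter the choice, it held 176 of 452 or 38.9% (34.5 to 43.5%). The highest position within it differed between the cell lines. The adenine at 3182, the highest mitochondrial position of DoHH-2, had 555 counts there and 28 in GM01953. The thymine at 3200 had 22 counts in DoHH-2 and 32 in GM01953, although DoHH-2 was the deeper library. As a share of the MT-RNR2 counts, 3182 held 11.7% in DoHH-2 and 6.20% in GM01953, and 3200 held 0.463% and 7.08%.

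Other high positions of MT-RNR2 lay further upstream. The cytosine at 2523 held 232 counts in DoHH-2 and 55 in GM01953, which is 4.89% and 12.2% of the gene. The 31 nt that follow it also occur in the nuclear genome, so this position could not be separated from nuclear copies of mitochondrial DNA by sequence alone. The adenine at 2617, nucleotide 947 of the rRNA, held 132 counts in DoHH-2 and 8 in GM01953. This adenine is a known site of base methylation, of a kind that can stop reverse transcriptase, and the part of such stops in its count was not tested. In MT-RNR1, the adenine at 919 was the highest position in both cell lines, with 127 counts in DoHH-2 and 10 in GM01953. It lies in MT:915-964, the 50-nt stretch of this rRNA with the most counts in DoHH-2, again chosen from its values. This stretch held 302 of 726 counts or 41.6% (38.1 to 45.2%) in DoHH-2 and 29 of 81 or 35.8% (26.2 to 46.7%) in GM01953.

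**Figure D3:**
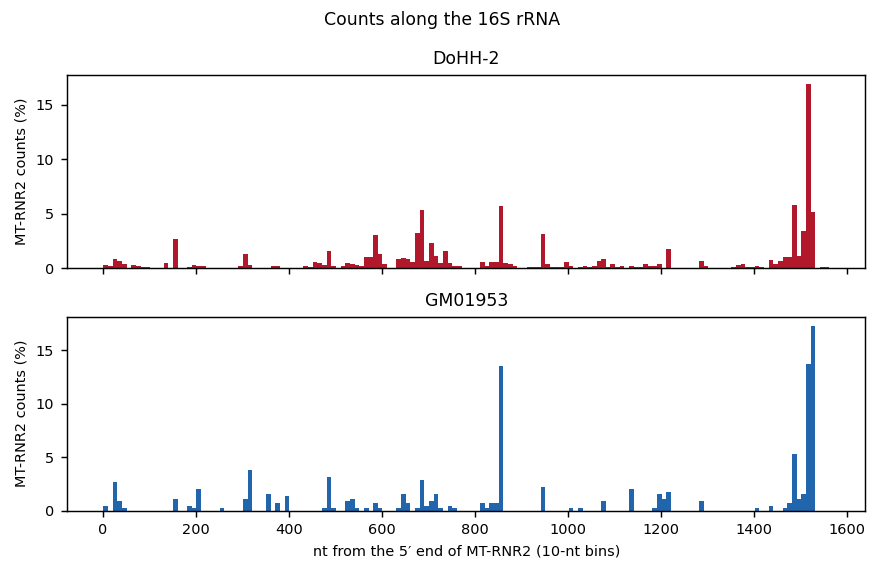
Share of the MT-RNR2 counts (%) in bins of 10 nt along the 16S rRNA, by distance from its 5′ end (nt), for DoHH-2 (top) and GM01953 (bottom). In both cell lines the highest bars are in the 50-nt stretch near the 3′ end, which held 32.5% and 38.9% of the counts.

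All 13 mRNAs held counts in both cell lines, and they varied less among themselves than the tRNAs. Their densities ran from 93.3 to 610 counts per kb with a median of 189 in DoHH-2, and from 3.81 to 49.3 with a median of 20.97 in GM01953. In 11 of the 13 in DoHH-2 and 8 in GM01953 at least 1 position was called.

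MT-CO1, which encodes the catalytic subunit of cytochrome c oxidase, had the most counts per length of the mRNAs in both cell lines. It held 941 counts or 610 per kb (572 to 651) in DoHH-2 and 76 or 49.3 per kb (38.8 to 61.7) in GM01953. MT-ND2 and MT-ND1, subunits of complex I, followed in DoHH-2 with 508 counts or 488 per kb (446.0 to 532) and 325 counts or 340.0 per kb (304 to 379). In GM01953 they held 15 counts or 14.4 per kb and 23 counts or 24.1 per kb, on either side of the median of that cell line. At the low end over the whole length in DoHH-2, above MT-ND6, were MT-ATP8 with 35 counts or 169 per kb (118 to 235) and MT-ATP6 with 120 counts or 176 per kb (146 to 211). Both encode subunits of the membrane part of ATP synthase. In GM01953 MT-ATP6 held 27 counts or 39.7 per kb (26.1 to 57.7), next after MT-CO1, although its interval overlapped that of MT-ND4 with 39.2 per kb (29.4 to 51.1).

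The mRNA shares of the cell lines are described further for those whose counting intervals lay apart, picked after their values were seen. MT-ND2 took 4.49% (4.12 to 4.89%) of the mitochondrial counts in DoHH-2 and 1.38% (0.836 to 2.26%) in GM01953, and MT-CYB, which encodes cytochrome b, 2.96% (2.66 to 3.29%) and 1.56% (0.976 to 2.48%). In the other direction, MT-ND4 took 2.30% (2.04 to 2.59%) in DoHH-2 and 4.95% (3.82 to 6.41%) in GM01953, and MT-ATP6 1.06% (0.888 to 1.27%) and 2.48% (1.71 to 3.58%). Since the replicates were pooled, the spread behind these shares is unknown.

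With the mRNAs cut into 5 equal parts from the 5′ end, the second and last part held the most counts in both cell lines. MT-CO1 alone gave a large part of the counts in the second. In DoHH-2 the parts held 15.8%, 28.1%, 15.8%, 15.0% and 25.3% of the mRNA counts, and in GM01953 16.5%, 37.95%, 9.57%, 15.8% and 20.1%. MT-CO1 gave 511 of the 1008 counts in the second part in DoHH-2 and 50 of the 115 in GM01953. Of the 458 nt of MT-CO1 with sequence unique to the mitochondrial genome, 215 lie in its second part. Per kb of unique sequence, that part of MT-CO1 held 2205 counts in DoHH-2, and the other parts between 849 and 1578. In GM01953 it held 233, and the others between 33.3 and 170. Without MT-CO1 the parts held 18.3%, 18.8%, 15.4%, 18.3% and 29.3% in DoHH-2, where only the last part stood above the others. In GM01953 they then held 21.1%, 28.6%, 7.49%, 17.2% and 25.6%, and the second part was still the highest in counts. The parts do not hold equal amounts of unique sequence. Per kb of unique sequence without MT-CO1, they held 341, 293, 266, 336 and 508 counts in DoHH-2. In GM01953 these values were 35.1, 39.2, 11.3, 28.15 and 40.7. The last part was then the highest in both cell lines, in GM01953 only just above the second.

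The nuclear-encoded partners of these proteins gave a comparison with mRNAs that are translated in the cytosol. Counts on the exons of 32 nuclear genes for subunits of complexes I, III and IV and of ATP synthase, one transcript per gene, were set beside the 13 mitochondrial mRNAs. In DoHH-2 the 32 nuclear mRNAs held 200 counts per kb together, between 10.4 for NDUFS1 and 1219 for COX7C, with a median of 235. The mitochondrial mRNAs held 315 per kb together, with the median of 189. In GM01953 the nuclear mRNAs held 14.03 counts per kb together with a median of 12.99, and the mitochondrial mRNAs 26.6 with the median of 20.97. The densities of both sets overlapped over most of their range. The order of the medians over whole mRNAs was opposite in the cell lines. Over sequence unique to the mitochondrial genome, the mitochondrial medians were 311 counts per kb in DoHH-2 and 30.9 in GM01953. The nuclear mRNAs were not limited to unique sequence, so these 2 medians have no like nuclear value to be set against.

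The tRNAs spread over the widest range of all kinds, from no count to the highest density of the genome. Counts were present on 16 of 22 tRNAs in DoHH-2 and on 13 in GM01953. MT-TY, the tRNA for tyrosine, held 453 counts or 6864 per kb (6246 to 7526) in DoHH-2 and 47 or 712 per kb (523 to 947) in GM01953. MT-TM, the tRNA for methionine, held 264 counts or 3882 per kb (3428 to 4380) in DoHH-2 and 43 or 632 per kb (458 to 852) in GM01953. MT-TF, the tRNA for phenylalanine, held 205 counts or 2887 per kb (2506 to 3311) in DoHH-2 and 81 or 1141 per kb (906 to 1418) in GM01953. These 3 tRNAs were the highest in both cell lines, MT-TY leading in DoHH-2 and MT-TF in GM01953.

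The next tRNAs held fewer counts. MT-TL1, a tRNA for leucine, held 146 counts in DoHH-2 and 19 in GM01953. MT-TP, the tRNA for proline, held 114 and 8, MT-TG, the tRNA for glycine, 92 and 4, and MT-TI, the tRNA for isoleucine, 32 and 12. The remaining tRNAs had at most 66 counts in DoHH-2 and at most 5 in GM01953.

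No count was listed in either cell line on MT-TQ, MT-TN, MT-TD, MT-TK and MT-TE, the tRNAs for glutamine, asparagine, aspartate, lysine and glutamate. A count of 0 allows a share of up to 0.0265% of the mitochondrial counts in DoHH-2 and 0.275% in GM01953. For MT-TN and MT-TK no 31-nt word of the tRNA was unique to the mitochondrial genome, and for MT-TD 4.41% of its nucleotides began a unique word. MT-TQ and MT-TE had 29.2% and 39.1% of their nucleotides at unique words. MT-TM, with 33.8%, had 264 counts in DoHH-2, of which 14 lay at unique words.

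Counts on the tRNAs were concentrated in the anticodon loop. With nucleotides numbered so that the anticodon is 34 to 36, the loop from 32 to 38 is 10.1% of the length of the 21 tRNAs for which the arm was found, all but MT-TS2. It held 1027 of 1488 counts or 69.0% (66.6 to 71.3%) in DoHH-2 and 195 of 230 or 84.8% (79.6 to 88.8%) in GM01953. Nucleotide 37 alone, directly 3′ of the anticodon, held 575 counts or 38.6% (36.2 to 41.1%) in DoHH-2 and 105 or 45.7% (39.3 to 52.1%) in GM01953, for 1.45% of the length. The anticodon itself held 353 counts or 23.7% in DoHH-2 and 69 or 30.0% in GM01953.

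This concentration rested largely on a few nucleotides. The adenine at 37 of MT-TY (MT:5859) held 392 of 453 counts or 86.5% of the tRNA in DoHH-2 and 35 of 47 or 74.5% in GM01953. The adenine at 37 of MT-TF (MT:614) held 158 of 205 or 77.1% in DoHH-2 and 66 of 81 or 81.5% in GM01953, and it was the highest mitochondrial position of GM01953. In MT-TM the highest nucleotide was the adenine of the anticodon at 35 (MT:4433), with 127 of 264 counts in DoHH-2 and 20 of 43 in GM01953. The 31 nt that follow it also occur in the nuclear genome. Nucleotide 37 of MT-TM, also an adenine, held 5 counts and 1. MT-TP was another tRNA with nucleotide 37 as its highest position, with 18 of 114 counts in DoHH-2 and 2 of 8 in GM01953, and there it is a guanine.

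Without MT-TF, MT-TM and MT-TY, the loop held 184 of 566 counts or 32.5% (28.8 to 36.5%) in DoHH-2 and 40 of 59 or 67.8% (55.1 to 78.3%) in GM01953. The highest position lay in the loop in 6 of 15 tRNAs with counts in DoHH-2 and in 10 of 12 in GM01953. MT-TV, the tRNA for valine, which also serves as a structural RNA of the large mitochondrial ribosomal subunit, had 44 counts in DoHH-2 and none of them in the loop. It had no count in GM01953.

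Other nucleotides of the tRNAs that are often modified were counted as well. Nucleotide 9, counted from the 5′ end, is commonly methylated in mitochondrial tRNAs, and nucleotide 37 carries modified bases in many of them. Some such bases stop reverse transcriptase, and their part in these counts was not tested. Nucleotide 9 held 80 of 1516 counts or 5.28% (4.26 to 6.52%) in DoHH-2, for 1.46% of the length, and 1 of 232 or 0.431% (0.0761 to 2.40%) in GM01953. In DoHH-2 these counts came from 11 of 22 tRNAs, 52 of them at an adenine, 26 at a guanine, 2 at a thymine and none at the 2 tRNAs with a cytosine. Nucleotide 9 of MT-TL1 had the most, with 23 counts.

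The ends of the tRNAs were examined because the precursor is cut there. A cDNA that begins at the first nucleotide of a gene is listed at the nucleotide before it, so cDNAs from the cut 5′ end of a gene would be listed at the last nucleotide of its neighbour. In 18 places a gene directly follows another on the same strand, and the listed nucleotide held counts at 7 of them in DoHH-2, 15 in all, and at 1 in GM01953, with 1 count. In DoHH-2 there were 3 counts before MT-RNR2, 3 before MT-TS2, 3 before MT-TL2, 2 before MT-TG, 2 before MT-ND5, 1 before MT-TL1 and 1 before MT-ND3. The count in GM01953 lay before MT-ND5. No count lay before MT-RNR1, MT-TV, MT-TI, MT-ND2, MT-TW, MT-CO2, MT-TR, MT-ND4L, MT-TH, MT-TT or MT-ND6. At the 10 places where the gene before is a tRNA, this was 12 of the 1516 tRNA counts in DoHH-2 or 0.792% (0.453 to 1.38%) and 1 of 232 in GM01953.

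MT-TL1 differed from the other tRNAs in its last nucleotide, the adenine at 3304 shown above. It held 42 of the 146 MT-TL1 counts in DoHH-2 or 28.8%, and none of 19 in GM01953. The last nucleotides of all 22 tRNAs together held 55 counts in DoHH-2. The cDNAs behind the 42 counts began at the first of the 2 nt that lie between MT-TL1 and MT-ND1. Because of these 2 nt, the pair is not among the 18 places above, and the 42 counts are not in their totals. A cDNA from a cut directly after MT-TL1 would also be listed at 3304, and the part of such cDNAs was not tested.

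The base at the cross-link differed between the kinds of RNA. Over all mitochondrial counts, 34.4% (33.6 to 35.3%) lay at a T, that is a U of the RNA, in DoHH-2 and 34.9% (32.1 to 37.7%) in GM01953, where 27.8% of the nucleotides of both strands are T. That reference weighs both strands alike, whereas most counts lay on the + strand. On the mRNAs the share was 48.1% (46.5 to 49.8%) in DoHH-2 and 46.9% (41.3 to 52.5%) in GM01953, for 26.1% of their nucleotides. On the rRNAs it was 28.7% (27.5 to 29.9%) and 35.8% (31.9 to 40.0%), for 21.9% of the nucleotides. On the tRNAs the most frequent base was A, with 59.4% (56.9 to 61.8%) of counts in DoHH-2 and 62.1% (55.7 to 68.1%) in GM01953, for 31.7% of the nucleotides. Each tRNA position counted once, A was at 29.3% and 28.3% of positions, close to its share of nucleotides. With each mRNA position counted once, T was at 37.3% of positions in DoHH-2 and 46.6% in GM01953, and C at 37.4% and 33.1%.

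GM01953 cross-links were found mostly at nucleotides that DoHH-2 also listed. Of its 368 mitochondrial positions, 259 or 70.4% (65.5 to 74.8%) were also in DoHH-2, which is 7.35% of the DoHH-2 positions. For nuclear positions the share was 32.8% (32.4 to 33.1%) of GM01953 and 2.18% of DoHH-2. Mitochondrial positions had higher mean counts than nuclear ones in both cell lines, as given above, and the part of this difference in the shared fraction was not tested. The shared positions held 81.0% of the mitochondrial counts in GM01953 and 37.8% in DoHH-2.

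Many stretches of mitochondrial DNA have copies in the nuclear genome, which bears on which reads could be placed. Words of 31 nt that occur once in GRCh38 began at 62.3% of mitochondrial nucleotides. In DoHH-2 these nucleotides held 86.3% of the mitochondrial counts, or 475 per kb (465 to 484), compared to 124 per kb (118 to 131) at words shared with nuclear sequence. In GM01953 it was 84.8%, or 44.9 per kb (42.1 to 47.9), compared to 13.3 (11.4 to 15.5). The part of lost reads in this difference was not tested. MT-RNR1 and MT-CO1 had 35.1% and 29.7% of their nucleotides at unique words, MT-RNR2 62.4% and MT-CYB 93.1%, so densities per kb are not on an equal footing between genes. Over unique words alone, MT-CO1 held 1727 counts per kb and MT-ND6 133 in DoHH-2, and they again were the highest and lowest mRNA. In GM01953 they held 162 and 5.56, also the highest and lowest. The order between them was not the same as over the whole length. In DoHH-2, MT-ATP6 with 443 counts per kb of unique sequence lay above the median of 311, and MT-ND4L with 152 and MT-ND3 with 186 lay below MT-ATP8 with 208. The annotated nuclear copies of mitochondrial genes held few counts themselves, on 35 of 404 in DoHH-2 with 177 counts, or 1.56% of the number on the mitochondrial genome. In GM01953 5 of them held 8 counts, or 0.734%.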

How the data were processed

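Pooled iCLIP tables of DoHH-2 (4 replicates) and GM01953 (2 replicates) were used. The authors removed PCR duplicates, trimmed the reads, aligned them with HISAT2 against GRCh38, combined replicates and ran iCount. The deposited cDNA counts are whole numbers that were not normalised, and the deposited FDR is a corrected p-value that the authors obtained with iCount. Tool versions and the annotation release were not given in the sources used here. The depth was 2033156 counts for DoHH-2 and 167197 for GM01953. Positions listed under several genes were counted once. File positions count from 0 and were converted to count from 1. Genes were those of GENCODE release 44, by strand. A 31-nt word following a position was unique if it occurred once in GRCh38 on either strand. Shares have Wilson and counts exact Poisson 95% intervals (scipy 1.17.1, pandas 2.3.3, Python 3.11.15), which cover counting error only, and the classification was tested on simulated data. All 37 genes were counted. Named with values were both rRNAs, the 3 highest and 3 lowest mRNAs per kb in DoHH-2, the 6 highest tRNAs and 5 highest positions of each cell line, and genes directly preceded by another; others were named after their values were seen. Members and lists were chosen with earlier results of these data known. Alternatives were called positions only, each position once, omission of the highest position of each gene, unique words, the authors' gene names and a match within 3 nt. One B-cell marker is not reported here.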

Additional observations from a re-analysis of the deposited data

How the results depend on the processing

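Of 64 alternative values, 21 stayed within the 95% interval of the reported value, among them all those with the authors' gene names, and 43 lay outside it. The cause was not tested. Values are given for DoHH-2 and then GM01953 where both moved. With positions at an FDR below 0.05 only, the mitochondrial share of all counts was 0.753% and 0.765%, the mRNA share of mitochondrial counts 24.5% and 22.6%, the tRNA share 19.1% and 25.9%, the anticodon loop share of tRNA counts 80.6% and 98.4%, and the share before the next gene 0% and 0%. In DoHH-2 the rRNA share was then 56.4% and the - strand share 8.21%, and 63.0% of GM01953 positions were also in DoHH-2. With each position counted once, the mitochondrial share was 0.299% and 0.469%, the rRNA share 26.1% and 41.3%, the mRNA share 52.9% and 40.2%, the tRNA share 5.82% and 14.4%, and the loop share 24.2% and 54.9%. In DoHH-2 the - strand share was then 12.8% and the share before the next gene 2.44%, and in GM01953 the share at a T was 39.1%. Without the highest position of each gene, the rRNA share was 49.9% and 57.6%, the tRNA share 7.03% and 10.1%, the - strand share 7.16% and 4.30%, the share at a T 38.6% and 41.2%, and the loop share 45.7% and 59.3%. In DoHH-2 the mRNA share was then 35.4% and the share before the next gene 1.78%. With unique words the tRNA share in DoHH-2 was 12.1% and the mRNA share in GM01953 30.9%. Within 3 nt, 92.1% of GM01953 positions matched DoHH-2. Without MT-TF, MT-TM and MT-TY, an alternative added after the data were seen as all those on the loop were, the loop share was 32.5% and 67.8%. Leaving out MT-TY from the - strand tRNAs, MT-CO1 from the mRNA parts and MT-TF, MT-TM and MT-TY from the tRNA counts was also added after the data were seen.

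No paired analysis was possible because each cell line has 1 pooled column, and leaving out a replicate could not be run for the same reason. The spread between replicates is therefore unknown. GM01953 is the shallower library, and genes with few counts there have wide intervals. In these alternatives the rRNAs held the largest share except with each position counted once, where in DoHH-2 the mRNAs did.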
